A study of Homo sapiens with 18 samples.

Results

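ZEB1, ZEB2, SNAI1, SNAI2, SNAI3, TWIST1, TWIST2, PRRX1 and ETS1 are 9 transcription factor genes tied to the epithelial-mesenchymal transition (EMT), and VIM codes for vimentin, the filament protein used as a marker of the mesenchymal state. They were picked by gene symbol, and all 10 were found among the 60642 symbols of a count table that covers 18 libraries of 2 human colorectal cancer cell lines. The study titled its aim as a compound screen against EMT, and RNA was sequenced in 6 groups of 3 libraries. The 12 HT-29 iZEB1 libraries carry a ZEB1 gene that doxycycline (DOX) switches on, so cells without DOX carry the inducible gene too. They formed 4 groups: without DOX in the vehicle DMSO, without DOX in RepSox, with DOX in DMSO and with DOX in RepSox. The 6 SW620 libraries, a line from a colorectal lymph node metastasis with no inducer, had DMSO or RepSox. RepSox, which blocks the kinase of the TGF-beta receptor ALK5, was used at 10 µM over 24 h and the DOX concentration was 1 µg per ml. The labels' protocol gives 24 h of DOX together with RepSox and the series' design text gives 48 h, so that the DOX time is uncertain. Parental HT-29 cells were not analysed here, so that an effect of DOX itself and one of ZEB1 cannot be told apart. Nothing says whether the replicates came from separate cultures, and p-values cover the spread among these libraries alone, which may be technical.

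Factors of the ZEB and SNAI families bind E-box motifs in promoters of epithelial genes, such as the adherens junction gene CDH1, and recruit co-repressors there. TWIST proteins are basic helix-loop-helix factors that pair with E proteins, PRRX1 is a homeobox factor of mesenchyme, and ETS1 is an ETS-domain activator. ZEB factors and the miR-200 family are known as a pair of mutual repressors: the microRNAs match sites in the ZEB 3′ untranslated regions (UTRs), and ZEB proteins repress the microRNA genes. TGF-beta is a known inducer of several of these factors in epithelial cells.

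The mature microRNAs of that loop are shown because their seeds, bases 2 to 8 in capitals, define the sites counted in ZEB1 and ZEB2. The first 3 share 1 seed, the next 2 share another, and miR-205-5p, also known to target ZEB transcripts, has its own (RefSeq, GRCh38.p14).
hsa-miR-200c-3p: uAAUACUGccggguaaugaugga
hsa-miR-200b-3p: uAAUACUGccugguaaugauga
hsa-miR-429: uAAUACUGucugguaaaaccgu
hsa-miR-141-3p: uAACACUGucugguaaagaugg
hsa-miR-200a-3p: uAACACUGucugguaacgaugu
hsa-miR-205-5p: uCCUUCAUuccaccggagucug

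The 3′ UTR of the ZEB1 transcript ZEB1-201 (1938 bases, GENCODE 29 on GRCh38) held CAGTATT, the match to the first seed, 5 times. It held CAGTGTT, the match to the second, 3 times, and ATGAAGG, the match to the miR-205 seed, once. Of 5965 UTR windows of that length, 20.9% held CAGTATT at all and 2 held it at least 5 times. CAGTGTT stood in 24.2% of those windows and ATGAAGG in 15.0%. The 3′ UTR of ZEB2-227 (5370 bases) held CAGTATT 5 times, CAGTGTT 4 times and ATGAAGG 0 times, and 48.4%, 51.8% and 35.3% of 1064 windows of that length held them. Sites were read on the transcript strand, and 1 of each kind is printed with its site in capitals. A match is a description of the letters and not a measured site of action.
ZEB1, first-seed site, chr10:31527621-31527650, plus strand: gttttatcttatCAGTATTatcactcttat
ZEB1, second-seed site, chr10:31528034-31528063, plus strand: aatcatcagaatCAGTGTTtgtgattgtgt
ZEB1, miR-205 site, chr10:31528070-31528099, plus strand: atgtggtaacatATGAAGGatatgacatga
ZEB2, first-seed site, chr2:144388979-144389008, minus strand: actacaatgcatCAGTATTatgattcctct
ZEB2, second-seed site, chr2:144388700-144388729, minus strand: gccatccttgtaCAGTGTTaagagggtaac

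The libraries held 36.5 to 39.8 M counts each, and levels are given as CPM, which are counts scaled to the effective library size. The limit of detection was taken as 3 counts in a library, which is 0.0734 to 0.0862 CPM. Colon epithelial markers were present in every library, led by KRT8 and KRT18, with a summed level of 4543 to 11020 CPM over 12 genes and CDX1 at 0 in SW620. Of 12 fibroblast markers the sum stayed at or below 1.51 CPM in HT-29 iZEB1, and COL1A2, PDGFRA and POSTN were at 0 in all 6 groups. The 12 leukocyte markers summed to 1123 to 1782 CPM in HT-29 iZEB1 and to 4.23 to 5.03 CPM in SW620, with MS4A1 and FCGR3A at 0 in all groups. Nearly all of the HT-29 iZEB1 sum was the lysozyme gene LYZ, which rose from 1338 to 1759 CPM with DOX in DMSO (adjusted p = 8.08e-05), while CD14 came next at 5.13 and 6.26 CPM. The part of these markers in the results was not tested. Endothelial markers in HT-29 iZEB1 were led by ESAM and ENG. Per kilobase of exon, HT-29 iZEB1 cells without DOX in DMSO had the members in the order ETS1 (1.17 CPM per kilobase), SNAI1 (1.13), ZEB1 (0.988), SNAI3 (0.424) and VIM (0.062). SW620 cells in DMSO had the order VIM (47.4 CPM per kilobase), ETS1 (14.2), SNAI1 (6.66), SNAI2 (3.70), ZEB1 (2.49), TWIST2 (0.694) and SNAI3 (0.167). With DOX in DMSO, ZEB1 stood first in HT-29 iZEB1 at 43.65 CPM per kilobase, and ETS1 followed at 2.99.

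**Figure D1:**
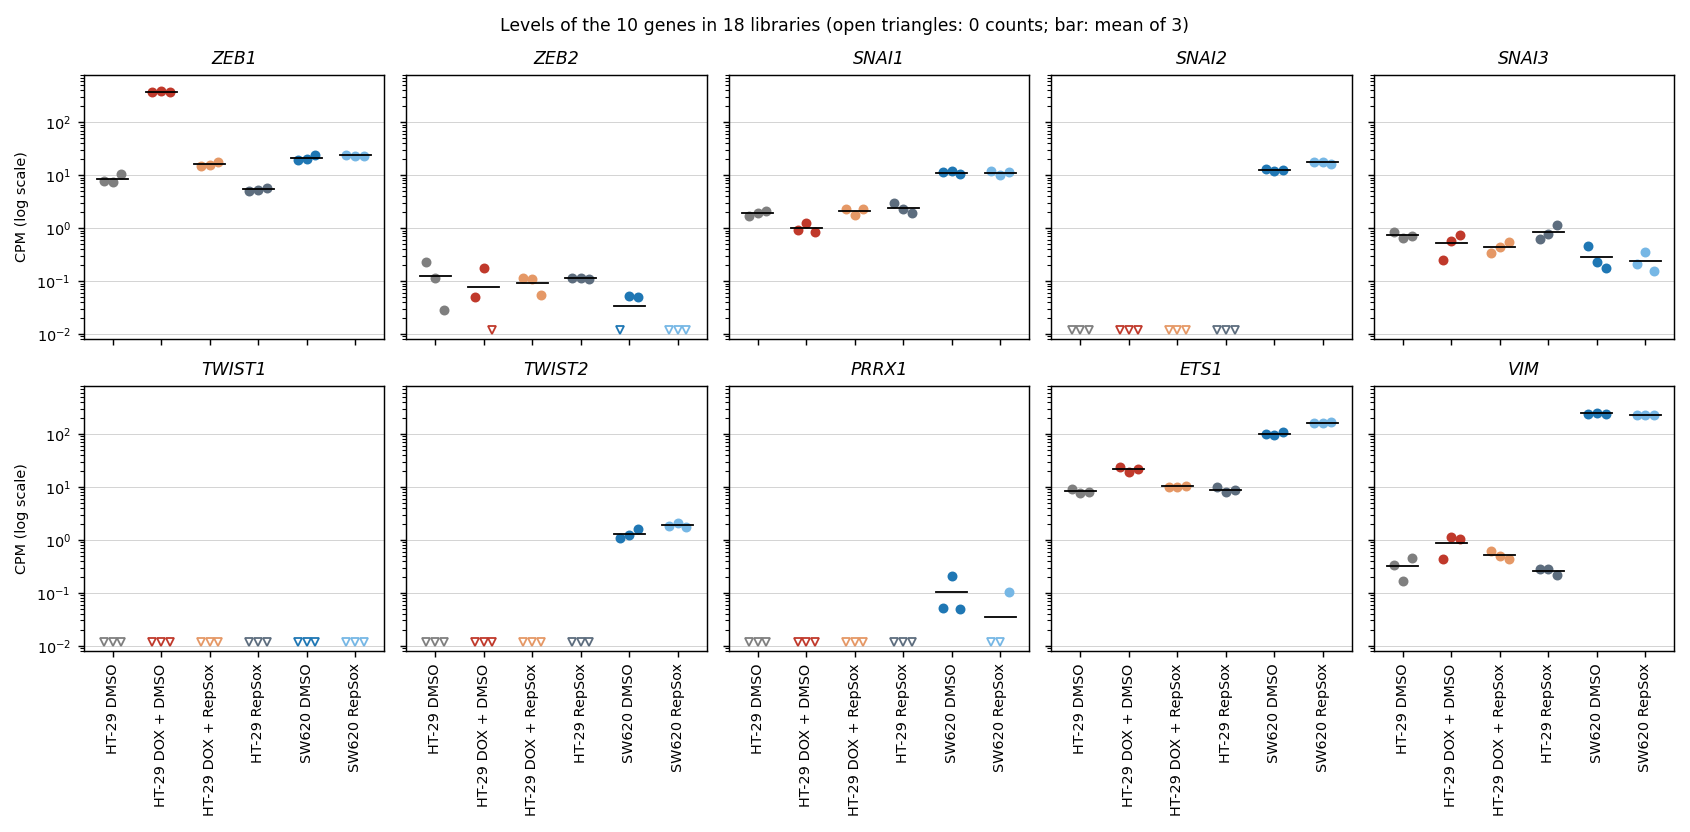
Level of each of the 10 genes (CPM, log scale) in the 18 libraries by group; points are libraries, bars are means of 3, open triangles are libraries with 0 counts. ZEB1 reached 378 CPM with DOX in DMSO, SNAI2 and TWIST2 were counted in the 6 SW620 libraries alone, VIM averaged 228 and 244 CPM in SW620 and at most 0.862 CPM in HT-29 iZEB1, and TWIST1 had 0 counts everywhere.

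Tests were edgeR quasi-likelihood tests with Benjamini-Hochberg adjustment over all genes tested, and a gene was called at an adjusted p below 0.05. The low-count filter kept 5 of the 10 genes in the HT-29 iZEB1 fit (ZEB1, SNAI1, SNAI3, ETS1 and VIM). It kept 6 in the SW620 fit (ZEB1, SNAI1, SNAI2, TWIST2, ETS1 and VIM) and 7 in the fit of all libraries, which added SNAI3. ZEB2, TWIST1 and PRRX1 passed in none and are given by their counts. DOX in DMSO called 4 of the 5 tested genes (ZEB1, ETS1 and VIM higher, SNAI1 lower), where 40.4% of all genes tested were called (19.2% higher and 21.1% lower). RepSox with DOX called 3 of 5 (SNAI1 higher, ZEB1 and ETS1 lower) against 52.2% of all genes (26.8% higher and 25.5% lower). RepSox without DOX called ZEB1 alone, lower, against 25.3% (12.5% higher and 12.8% lower). DOX in RepSox called ZEB1 alone, higher, against 0.477% (0.0942% higher and 0.383% lower). Those 81 genes became 293 with DESeq2, 27 to 43 when any 1 of 5 libraries was left out and 1670 without the DOX RepSox replicate 1, while ZEB1 stayed called. RepSox in SW620 called 2 of 6, SNAI2 and ETS1, both higher, against 19.5% of all genes (10.2% higher and 9.24% lower). With scaling by library totals alone, the share of called genes that were higher moved from 47.6% to 59.4% for DOX in DMSO, from 57.4% to 47.0% for the DOX by RepSox interaction and from 52.5% to 39.5% for RepSox in SW620.

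**Figure D2:**
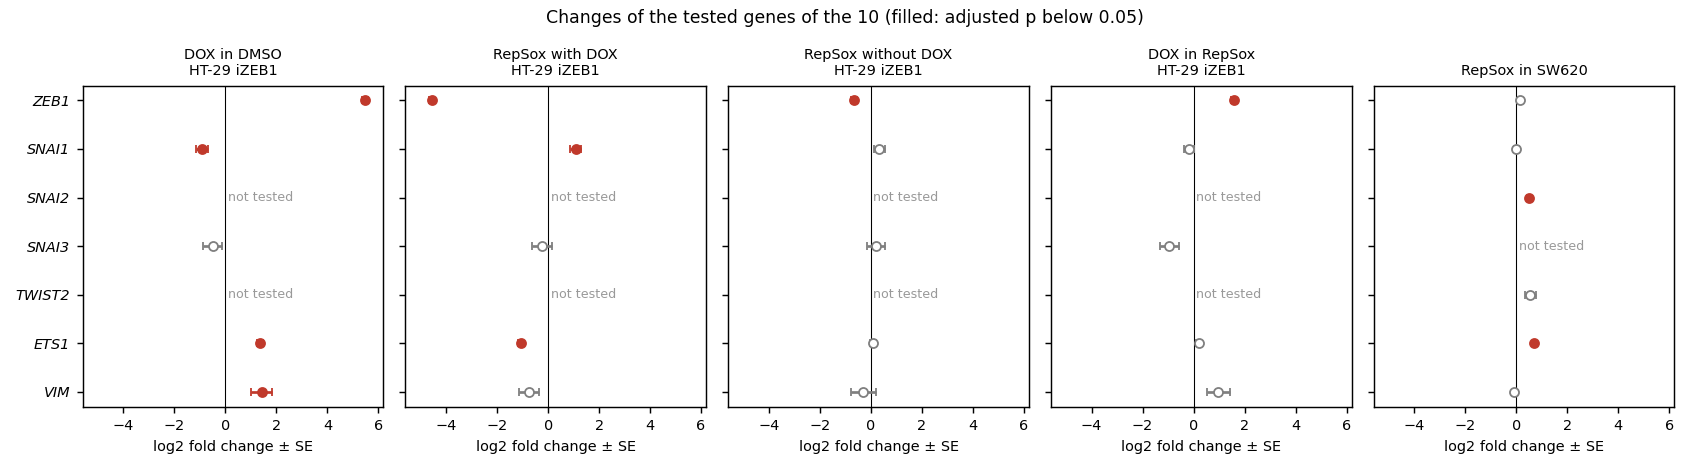
Log2 fold change with its standard error for each tested gene of the 10 in 5 comparisons; filled points were called at an adjusted p below 0.05. ZEB1 moved by 5.47 with DOX in DMSO, -4.57 with RepSox under DOX and 1.57 with DOX under RepSox, while SNAI1 and ETS1 moved in opposite directions to each other in the first 2 panels.

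ZEB1 (ENSG00000148516.21, chr10:31318495-31529814, plus strand, protein coding) is a zinc-finger and homeodomain repressor and the gene under DOX control. Without DOX in DMSO the 3 libraries held 279, 261 and 368 counts, and with DOX in DMSO they held 14634, 15032 and 15364. Every DOX library stood above every library without DOX, in the direction of the labels. The mean level rose from 8.54 ± 1.59 to 378 ± 7.04 CPM (SD, n = 3 in each), which was 44.3-fold (log2 fold change 5.47, SE 0.10, adjusted p = 2.4e-17). Reads of the inducible gene and of the cell's own ZEB1 cannot be told apart in a count by symbol.

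With RepSox added to DOX, the 3 libraries held 519, 590 and 642 ZEB1 counts, all far below the DOX libraries in DMSO and all above the libraries without DOX. ZEB1 averaged 16.0 ± 1.39 CPM there, 23.8-fold below DOX in DMSO (log2 fold change -4.57, SE 0.10, adjusted p = 4.02e-16). It remained 1.87-fold above the untreated cells (adjusted p = 3.11e-06), a comparison that called 26.2% of all genes (12.6% higher and 13.6% lower) and ZEB1 alone of the 5 tested. In cells without DOX, RepSox libraries held 179, 187 and 211 counts, below all 3 DMSO libraries. ZEB1 fell there to 5.38 ± 0.346 CPM, 1.60-fold (log2 fold change -0.67, SE 0.11, adjusted p = 0.000246). Between RepSox-treated cells with and without DOX, ZEB1 differed 2.98-fold (log2 fold change 1.57, SE 0.11, adjusted p = 1.37e-07). The DOX by RepSox interaction, the difference between the DOX effect in RepSox and in DMSO, was -3.90 for ZEB1 on the log2 scale (SE 0.15, adjusted p = 2.85e-12), in a comparison that called ZEB1 and ETS1, both lower, and 22.6% of all genes (13% higher and 9.61% lower).

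SW620 libraries held 773, 794 and 971 ZEB1 counts in DMSO and 951, 908 and 879 in RepSox, and these groups overlapped. The levels were 21.5 ± 2.54 and 23.7 ± 0.826 CPM (log2 fold change 0.14, SE 0.08, adjusted p = 0.234), and the call changed when SW620 DMSO replicate 3 was left out (0.24, adjusted p = 0.011). SW620 in DMSO held 2.52-fold more ZEB1 than HT-29 iZEB1 without DOX (adjusted p = 6.48e-12) and 17.6-fold less than HT-29 iZEB1 with DOX (adjusted p = 1.32e-22). Against HT-29 iZEB1 without DOX, SW620 had 6 of the 7 tested genes higher and SNAI3 lower, where 40.1% of all genes were called higher and 36.5% lower (76.6% in all). Against HT-29 iZEB1 with DOX, it had 5 higher and ZEB1 lower, where 41.6% were called higher and 36.8% lower (78.5% in all). SNAI2 and TWIST2 are among the higher genes in both comparisons. They had 0 counts in HT-29 iZEB1 and passed the filter through SW620 alone, so that no other direction was possible for them. With scaling by library totals alone, the median log2 fold change of all genes between SW620 and HT-29 iZEB1 without DOX moved from 0.06 to 0.18, far less than the changes given here for ZEB1, SNAI1, ETS1 and VIM. The RepSox response of ZEB1 was 0.80 higher on the log2 scale in SW620 than in HT-29 iZEB1 without DOX (SE 0.15, adjusted p = 0.000469), where ZEB1 and ETS1 were called, both higher, and 10.4% of all genes (5.39% higher and 4.99% lower). In order of ZEB1 level, the DOX group in DMSO came first, the 2 SW620 groups overlapped with each other, and DOX with RepSox, no DOX with DMSO and no DOX with RepSox followed without overlap.

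ZEB1-AS1, an antisense transcript that shares 366 bases of exon with ZEB1 (4.23% of its exon length), held 132, 137 and 123 counts without DOX and 121, 121 and 123 with DOX in DMSO. The log2 fold change was -0.26 (adjusted p = 0.19), so that the antisense gene was not called where ZEB1 rose. RepSox without DOX lowered ZEB1-AS1 by 1.38-fold (adjusted p = 0.0361), the same direction as ZEB1. With DOX its mean was 3.06 CPM in DMSO and 3.64 in RepSox, a difference that was not called, and the interaction was 0.71 (SE 0.22, adjusted p = 0.0258), opposite in sign to that of ZEB1. The strand setting of the counting is not given in the sources used here, and reads in the shared bases may be split between the 2 genes.

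The host genes of 3 of the microRNAs printed above were counted, while the mature microRNAs were not. MIR200CHG (chr12:6963246-6964447, plus strand), which contains MIR200C and MIR141 on the same strand, held 28, 56 and 35 counts without DOX in DMSO and 7, 2 and 3 with DOX. It fell 10.8-fold with DOX in DMSO (log2 fold change -3.43, SE 0.50, adjusted p = 1.66e-05) and was 5.78-fold higher with RepSox added to DOX (adjusted p = 0.000519), at 10, 29 and 27 counts. MIR205HG, host of MIR205, held 53, 91 and 87 counts without DOX and 22, 23 and 35 with DOX in DMSO, a fall of 3.22-fold (adjusted p = 2.07e-05). RepSox raised MIR205HG both with DOX (175, 214 and 246 counts, 8.56-fold, adjusted p = 1.78e-09) and without it (175, 202 and 243 counts, 2.64-fold, adjusted p = 3.47e-05). In HT-29 iZEB1 cells the host transcripts were thus low in the group where ZEB1 was high. SW620 libraries held 0 to 3 counts of MIR200CHG and 0 to 4 of MIR205HG.

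**Figure D3:**
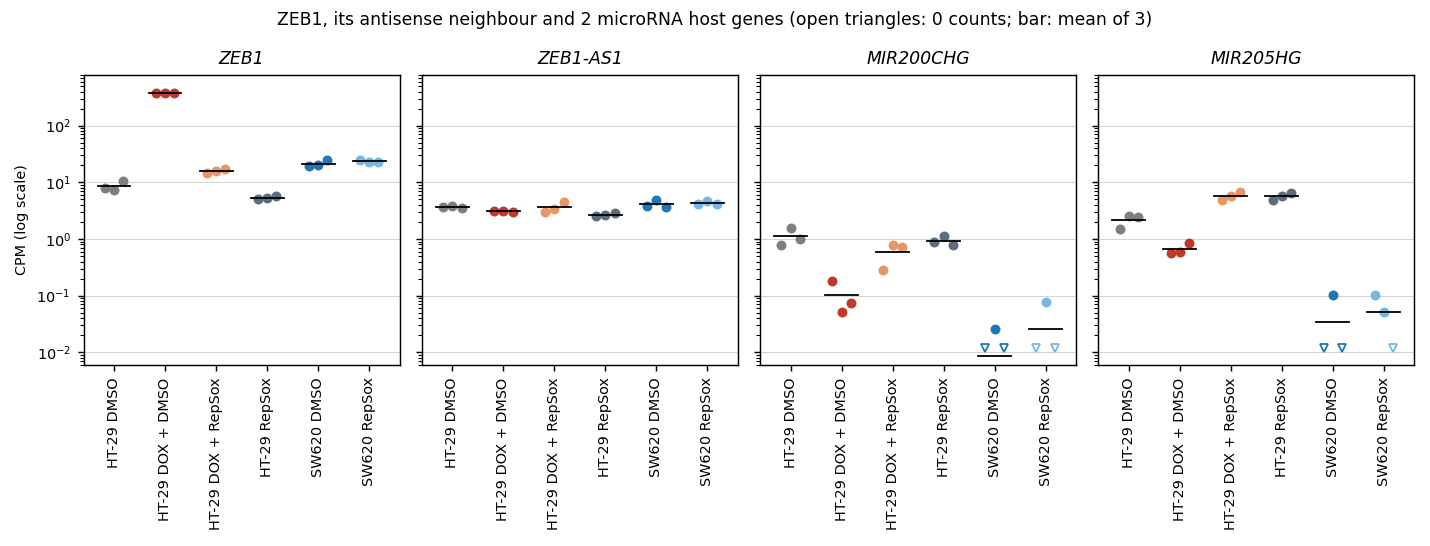
Levels (CPM, log scale) of ZEB1, its antisense neighbour ZEB1-AS1 and the host genes of miR-200c/141 and miR-205 by library and group; bars are means of 3 and open triangles are 0 counts. With DOX in DMSO, ZEB1 stood at 378 CPM and MIR200CHG at 0.101, against 8.54 and 1.12 without DOX, while ZEB1-AS1 lay between 2.68 and 4.34 CPM in all group means.

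ZEB2 (chr2:144364364-144524583, minus strand), a paralog of ZEB1, was near the limit of detection in every library. The HT-29 iZEB1 groups held 8, 4 and 1 counts without DOX in DMSO, 4, 4 and 4 in RepSox, 2, 7 and 0 with DOX in DMSO and 4, 4 and 2 with DOX in RepSox. SW620 held 0, 2 and 2 counts in DMSO and 0 in all 3 RepSox libraries. Within each line the groups of every comparison overlapped, and no treatment difference was detectable at this depth. The HT-29 iZEB1 group means ran from 0.077 CPM with DOX in DMSO to 0.12 CPM without DOX in DMSO. These lay too near the limit of 3 counts per library to give a fold against SW620. Of the 13 values above 0, 11 were even, and over all genes 55.2% of the 143413 values from 1 to 10 were even against 49.5% of values from 91 to 100. Whether each read of a pair was counted is not given in the sources used here, so that a count of 2 may be 1 fragment.

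SNAI1 (ENSG00000124216.3, chr20:49982999-49988886, plus strand) codes for SNAIL, a zinc-finger repressor of CDH1. It moved against ZEB1 in the cells with DOX. The DMSO libraries held 59, 69 and 74 counts without DOX and 37, 48 and 34 with DOX, with no overlap. The level fell from 1.90 ± 0.21 to 1.00 ± 0.206 CPM, 1.89-fold (log2 fold change -0.92, SE 0.23, adjusted p = 0.00287). With RepSox added to DOX it stood at 83, 65 and 84 counts, or 2.125 ± 0.323 CPM, 2.11-fold above DOX in DMSO (log2 fold change 1.08, SE 0.22, adjusted p = 0.000475). Without DOX, RepSox libraries held 105, 81 and 71 counts, which overlapped with DMSO (log2 fold change 0.33, SE 0.21, adjusted p = 0.273). The interaction for SNAI1 was 0.75 (SE 0.30, adjusted p = 0.0875). It was called without the no-DOX RepSox replicate 1 (adjusted p = 0.0444) or without the DOX DMSO replicate 2 (adjusted p = 0.0433).

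SW620 cells held 445, 467 and 412 SNAI1 counts in DMSO and 471, 396 and 435 in RepSox. The means were 11.2 ± 0.825 and 11.3 ± 1.04 CPM, and the groups overlapped (log2 fold change 0.00, adjusted p = 0.985). SW620 in DMSO stood 5.90-fold above HT-29 iZEB1 without DOX (adjusted p = 8.05e-14) and 11.2-fold above HT-29 iZEB1 with DOX.

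SNAI2 (chr8:48917604-48921740, minus strand) codes for SLUG, a second SNAI repressor known from neural crest. All 12 HT-29 iZEB1 libraries had 0 counts of it, DOX or not. SW620 libraries held 508, 476 and 495 counts in DMSO and 693, 709 and 617 in RepSox. The 3 RepSox libraries stood above the 3 DMSO libraries, at 17.45 ± 1.06 against 12.5 ± 0.375 CPM, and SNAI2 rose 1.39-fold with RepSox (log2 fold change 0.48, SE 0.08, adjusted p = 7.59e-05). Against the limit of 3 counts per library, SNAI2 was at least 148-fold higher in SW620 in DMSO than in HT-29 iZEB1 without DOX and at least 166-fold higher than with DOX. Whether the RepSox response of SNAI2 differed between the lines could not be estimated, since HT-29 iZEB1 was at 0.

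SNAI3 (chr16:88677682-88686493, minus strand), another gene of the SNAI family, held 30, 23 and 25 counts without DOX in DMSO, 22, 27 and 43 in RepSox, 10, 22 and 30 with DOX in DMSO and 12, 16 and 20 with DOX in RepSox. SW620 held 18, 9 and 7 counts in DMSO and 8, 14 and 6 in RepSox. DOX and no DOX in DMSO overlapped, as did RepSox and DMSO within each line and DOX condition. The libraries with DOX in RepSox, at 0.438 CPM on average, all stood below those without DOX in RepSox (0.855 CPM) and without DOX in DMSO (0.734 CPM). No treatment comparison called the gene, with adjusted p = 0.308 for DOX in DMSO, 0.616 for RepSox with DOX, 0.276 for DOX in RepSox and 0.164 for DOX with RepSox against untreated cells. SNAI3 was lower in SW620 than in HT-29 iZEB1 without DOX (log2 fold change -1.34, SE 0.42, adjusted p = 0.00576), and not called against HT-29 iZEB1 with DOX (-0.84, adjusted p = 0.0781). That second comparison was called without SW620 DMSO replicate 1 (adjusted p = 0.015) or without the DOX DMSO replicate 1 (adjusted p = 0.0128). Its antisense neighbour SNAI3-AS1 shares 163 exon bases with it and held more counts, 67 to 135 per HT-29 iZEB1 library.

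TWIST1 (chr7:19020991-19117672, minus strand) had 0 counts in all 18 libraries. TWIST2 (chr2:238848032-238910543, plus strand) had 0 counts in the 12 HT-29 iZEB1 libraries and 42, 48 and 64 in SW620 in DMSO. RepSox-treated SW620 libraries held 71, 83 and 66 counts, all above the DMSO libraries. The means were 1.30 ± 0.276 and 1.90 ± 0.202 CPM, and the difference was not called (log2 fold change 0.54, SE 0.21, adjusted p = 0.0768), except without SW620 DMSO replicate 3 (0.72, adjusted p = 0.0243). Against the limit of 3 counts per library, TWIST2 was at least 15.4-fold higher in SW620 in DMSO than in HT-29 iZEB1 without DOX. It was at least 17.3-fold higher than with DOX. TWIST2 passed the filter of the fit of all libraries through its SW620 counts alone, so that a test between the lines adds nothing. PRRX1 (chr1:170662728-170739419, plus strand) had 0 counts in HT-29 iZEB1, 2, 8 and 2 in SW620 in DMSO and 0, 0 and 4 in SW620 in RepSox, too few to compare, and all 4 values above 0 were even.

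ETS1 (ENSG00000134954.14, chr11:128458761-128587558, minus strand) moved in the same directions as ZEB1 in HT-29 iZEB1 with DOX, at a smaller size. Without DOX in DMSO the libraries held 326, 275 and 288 counts, and with DOX in DMSO 918, 753 and 883, without overlap. The level rose from 8.37 ± 0.764 to 21.4 ± 2.01 CPM, 2.57-fold (log2 fold change 1.36, SE 0.10, adjusted p = 4.31e-09). With RepSox added to DOX the counts were 359, 374 and 390, or 10.3 ± 0.275 CPM, 2.10-fold lower than DOX in DMSO (log2 fold change -1.07, SE 0.10, adjusted p = 5.32e-08). RepSox without DOX gave 356, 281 and 321 counts, which overlapped with DMSO (log2 fold change 0.09, SE 0.11, adjusted p = 0.606). The interaction for ETS1 was -1.16 (SE 0.15, adjusted p = 1.16e-05). DOX with RepSox against untreated cells was not called (0.29, adjusted p = 0.0503), and it was called with DESeq2 (0.29, adjusted p = 0.0436), with scaling by library totals alone (0.30, adjusted p = 0.0446) and without the no-DOX DMSO replicate 1 (0.37, adjusted p = 0.0366).

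In SW620, ETS1 rose under RepSox, where it had fallen in HT-29 iZEB1 with DOX. The DMSO libraries held 3966, 3728 and 4274 counts and the RepSox libraries 6251, 6251 and 6356. Every RepSox library stood above every DMSO library, at 163 ± 3.71 against 101 ± 5.85 CPM, a rise of 1.61-fold (log2 fold change 0.69, SE 0.05, adjusted p = 1.59e-10). The response differed from that in HT-29 iZEB1 without DOX by 0.59 (SE 0.12, adjusted p = 0.00123). Its difference from the response in HT-29 iZEB1 with DOX was not tested. SW620 in DMSO held 12.1-fold more ETS1 than HT-29 iZEB1 without DOX (adjusted p = 3.78e-22) and 4.74-fold more than with DOX.

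VIM (ENSG00000026025.15, chr10:17228259-17237593, plus strand) had the largest fold between the lines among the tested genes of the 10 that were counted in both. HT-29 iZEB1 held 12, 6 and 16 counts without DOX in DMSO, 10, 10 and 8 in RepSox, 17, 44 and 42 with DOX in DMSO and 22, 18 and 16 with DOX in RepSox. SW620 held 9428, 9703 and 9688 counts in DMSO and 8748, 9032 and 8534 in RepSox. VIM stood at 244 ± 4.45 CPM in SW620 in DMSO, 756-fold above HT-29 iZEB1 without DOX (log2 fold change 9.56, SE 0.15, adjusted p = 1.34e-25) and 282-fold above HT-29 iZEB1 with DOX. Within HT-29 iZEB1, VIM rose with DOX in DMSO from 0.320 ± 0.141 to 0.862 ± 0.376 CPM (log2 fold change 1.43, SE 0.41, adjusted p = 0.00838). The libraries overlapped in CPM, and the call ended without the no-DOX DMSO replicate 2 (1.12, adjusted p = 0.0537). RepSox with DOX was not called for VIM (-0.76, adjusted p = 0.102), and was called without the DOX DMSO replicate 1 (-1.08, adjusted p = 0.0208). Of the 18 VIM counts, 16 were even.

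VIM in SW620 stood at 228 ± 3.53 CPM in RepSox, with all 3 libraries below the DMSO libraries, but the difference was not called (log2 fold change -0.10, SE 0.04, adjusted p = 0.0899). It was called with scaling by library totals alone (-0.14, adjusted p = 0.023). VIM-AS1, which shares 641 exon bases with VIM (12.4% of its exon length), held 97, 117 and 83 counts in SW620 in DMSO and 135, 164 and 151 in RepSox. It rose 1.54-fold (adjusted p = 0.00556), the other direction from VIM. The fibroblast marker sum was 12.55 to 13.6 CPM in SW620 in DMSO and 7.33 to 8.77 in RepSox, with LUM and PDGFRB highest and COL1A2, PDGFRA and POSTN at 0. Its part in the SW620 results was not tested.

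The known direct targets of ZEB or SNAI repression moved together with DOX. All 20 genes of the list were tested and all 20 fell with DOX in DMSO, where 21.1% of all genes were called lower. The median log2 fold change was -1.68 against 0.002 over all genes. This list and the other gene lists were chosen with earlier results of these data known. Their counts are thus descriptions and no independent test. TMEM30B, a flippase subunit, fell 17.8-fold from 65.5 to 3.66 CPM (log2 fold change -4.15, SE 0.08, adjusted p = 1.93e-17). MARVELD3, a tight junction protein, fell 7.42-fold (40.4 to 5.42 CPM), and OVOL1, an epithelial transcription factor, fell 6.57-fold (11.9 to 1.80 CPM). The summed level of the 12 colon epithelial markers, of which EPCAM is also in this list, was 4543 to 5038 CPM with DOX in DMSO and 8705 to 9929 without. KRT8 and KRT18 made up most of that sum. Of the 12 markers, 8 fell and 2 rose, among them the cadherin gene CDH17 from 1.32 to 8.42 CPM (adjusted p = 1.61e-10). Their part in the result was not tested, and in bulk samples fewer cells of a type and less RNA per cell cannot be told apart.

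RepSox with DOX raised 19 of the 20 targets and lowered 0, with a median of 1.27 against -0.01 over all genes, where 26.8% of all genes were called higher. TMEM30B stood at 31.9 CPM, MARVELD3 at 36.9 and OVOL1 at 9.14. Against untreated cells, DOX with RepSox left 14 of the 20 lower and 0 higher (median -0.36), where 13.6% of all genes were called lower, and TMEM30B was still 2.06-fold lower (adjusted p = 1.35e-09). The colon epithelial marker sum was 10110 to 11020 CPM there. RepSox without DOX lowered 8 and raised 1, with a median of -0.11, where 12.8% were called lower, and ESRP2, an epithelial splicing factor, fell 1.43-fold (adjusted p = 8.18e-05). DOX in RepSox lowered 4 of 20 (median -0.22), where 0.383% of all genes were called lower. TMEM30B fell 1.72-fold, the tight junction gene CLDN7 1.47-fold and the polarity gene LLGL2 1.45-fold there. In SW620, 16 of the 20 were tested, and RepSox raised 2 and lowered 3, where it raised 10.2% and lowered 9.24% of all genes. CDH1, which codes for E-cadherin, rose 1.82-fold from 9.96 to 18.2 CPM (adjusted p = 4.9e-07), and the claudin gene CLDN3 fell from 10.6 to 7.04 CPM (adjusted p = 0.000164). In HT-29 iZEB1 without DOX, the mean of CDH1 was lower in RepSox (385 CPM) than in DMSO (469). With DOX it was higher in RepSox (350 CPM) than in DMSO (232). SW620 in DMSO was lower than HT-29 iZEB1 without DOX for 18 of 20, where 36.5% of all genes were called lower, and GRHL2, an epithelial transcription factor, stood at 0.0676 against 113 CPM.

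E-boxes were counted in RefSeq promoter windows, which span a transcript start and lie mostly upstream of it, as CACCTG or CAGGTG, which are reverse complements, so that both strands are read. Of the 20 targets, 9 were in the table, and 7 of these had at least 1 E-box (CRB3, PATJ, RAB25, CLDN3, CLDN7, OCLN and TMEM30B). Of their 11 windows, 72.7% held an E-box, against 20.6% of all 35116 windows of the same length. The list was made of known targets of factors that bind E-boxes, so that a high share was likely in advance and tests nothing. Of the 10 genes studied, 5 were in the table: ZEB1 had an E-box in 2 of 7 windows, and ZEB2, TWIST2, PRRX1 and VIM had 0 in 1 window each. The windows of TMEM30B, which fell most among the 20, of CRB3, a polarity gene chosen after its motif count was seen, and of MIR200CHG are printed with E-boxes in capitals (GRCh38.p14). MIR205HG, the other host gene, had 0 E-boxes in its 1 window. CRB3 fell 5.45-fold with DOX in DMSO (log2 fold change -2.45, SE 0.13, adjusted p = 4.05e-11). A match is a description of these letters and shows no binding.
TMEM30B, chr14:61281289-61281588, minus strand, 4 E-boxes: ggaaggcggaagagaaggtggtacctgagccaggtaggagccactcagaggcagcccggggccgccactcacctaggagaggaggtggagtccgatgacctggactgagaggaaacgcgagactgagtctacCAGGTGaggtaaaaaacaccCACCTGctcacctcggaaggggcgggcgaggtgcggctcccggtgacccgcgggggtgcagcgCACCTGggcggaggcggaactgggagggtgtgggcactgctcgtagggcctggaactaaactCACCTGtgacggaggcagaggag
CRB3, chr19:6464021-6464320, plus strand, 5 E-boxes: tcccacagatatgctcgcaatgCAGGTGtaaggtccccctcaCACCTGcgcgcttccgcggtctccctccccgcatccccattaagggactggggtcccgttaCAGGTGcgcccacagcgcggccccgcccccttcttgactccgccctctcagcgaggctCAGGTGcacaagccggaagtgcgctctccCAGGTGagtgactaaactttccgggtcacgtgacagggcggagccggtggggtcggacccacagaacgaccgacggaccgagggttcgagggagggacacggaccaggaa
MIR200CHG, chr12:6962995-6963294, plus strand, 1 E-box: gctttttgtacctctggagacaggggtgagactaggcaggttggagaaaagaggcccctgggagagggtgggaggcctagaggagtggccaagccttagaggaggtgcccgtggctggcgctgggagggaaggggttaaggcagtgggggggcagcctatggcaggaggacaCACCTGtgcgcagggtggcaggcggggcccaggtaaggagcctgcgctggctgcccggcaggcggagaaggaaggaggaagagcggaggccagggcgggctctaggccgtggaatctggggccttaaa

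**Figure D4:**
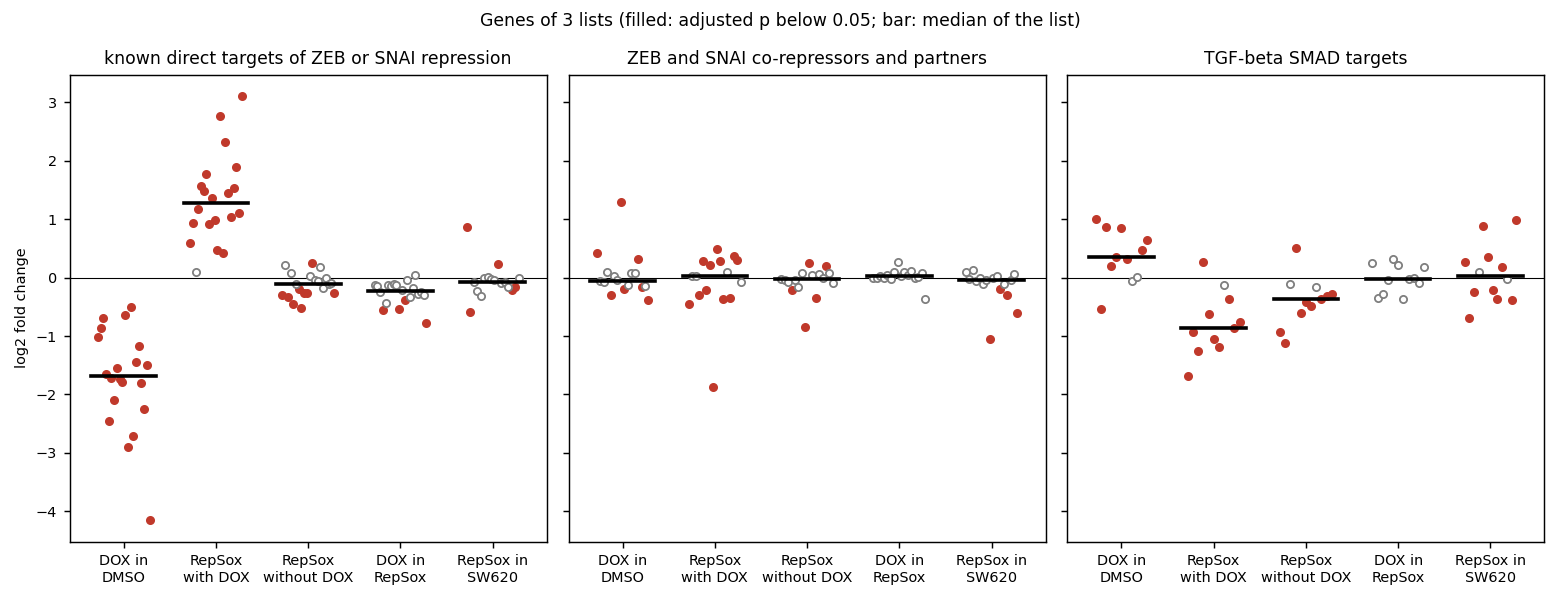
Log2 fold changes of the genes of 3 lists in 5 comparisons; each point is a gene, filled where the adjusted p was below 0.05, and bars are list medians. The repression targets had a median of -1.68 with DOX in DMSO and 1.27 with RepSox under DOX, the co-repressors had -0.05 and 0.03, and the TGF-beta SMAD targets had 0.35 and -0.87.

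The genes of co-repressors and partners of ZEB and SNAI proteins (16 genes, all tested) were called about as often as all genes with DOX in DMSO: 3 rose and 4 fell, where 19.2% of all genes rose and 21.1% fell, and the median log2 fold change was -0.05. KAT2B, an acetyltransferase, rose 2.45-fold from 2.50 to 6.11 CPM (adjusted p = 4.03e-05) and was 3.67-fold lower with RepSox added to DOX (1.68 CPM). KAT2B also fell with RepSox in SW620, 2.06-fold (adjusted p = 4.37e-06). RepSox with DOX raised 6 and lowered 6 of the 16, where it raised 26.8% and lowered 25.5% of all genes. KDM1A, the histone demethylase recruited by SNAIL, rose 1.40-fold. Of 6 tested E proteins and ID factors, the partners and antagonists of TWIST proteins, 2 rose and 1 fell with DOX in DMSO. Over all genes, 19.2% rose and 21.1% fell there. ID2 fell 2.83-fold from 34.1 to 12 CPM (adjusted p = 5.06e-11) and was 3.94-fold higher with RepSox added. ID3 rose 2.79-fold at a low level (0.264 to 0.740 CPM, adjusted p = 0.022) and was 6.60-fold lower with RepSox added, and the E protein gene TCF12 rose from 126 to 168.5 CPM (adjusted p = 1.32e-05). ID1 fell 2.54-fold with RepSox without DOX (46.4 to 18.3 CPM, adjusted p = 1.67e-08). In SW620, RepSox lowered 3 of the 5 E protein and ID genes tested (ID1, ID2 and ID3), where 9.24% of all genes were called lower. In the list on SNAIL protein turnover, 4 genes rose and 2 fell of 13 tested with DOX in DMSO, against the same 19.2% and 21.1% of all genes, with FBXO45, a ubiquitin ligase subunit, 1.44-fold lower and LATS2, a kinase, 1.43-fold higher.

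TGF-beta SMAD targets, genes listed as targets of the pathway whose receptor RepSox blocks, rose for 8 and fell for 1 of 11 tested genes with DOX in DMSO (median 0.35), where 19.2% of all genes were called higher and 21.1% lower. CCN2, a matricellular protein gene, rose 2.01-fold from 4.07 to 8.13 CPM (adjusted p = 1.05e-05), and SKIL, a SMAD co-repressor, rose 1.80-fold. RepSox lowered 9 of the 11 with DOX (median -0.87) and 8 of the 11 without DOX (median -0.36), and raised 1 in each case. Over all genes, RepSox lowered 25.5% with DOX and 12.8% without, and raised 26.8% and 12.5%. ZEB1 was also lower with RepSox under DOX, and its part in these falls was not tested. The inhibitory SMAD7 fell 2.28-fold with RepSox under DOX, from 24.2 to 10.7 CPM (adjusted p = 5.74e-09), and JUNB fell 2.18-fold without DOX. In SW620, 5 of 12 rose and 5 fell with RepSox, where 10.2% of all genes rose and 9.24% fell. TGFBI rose 1.97-fold and PMEPA1 1.84-fold, and CCN2 fell 1.61-fold. The SW620 list thus had no common direction (median 0.03), while ETS1 and SNAI2 rose there. In HT-29 iZEB1 the mean of PMEPA1 was also higher in RepSox than in DMSO, at 152 against 107 CPM without DOX and 148 against 122 with DOX. The mean of TGFBI was lower in RepSox there, at 65.7 against 79.6 CPM without DOX and 74.4 against 124.5 with DOX.

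Of 10 tested genes in a list of other EMT factors, 4 rose and 2 fell with DOX in DMSO, where 19.2% of all genes rose and 21.1% fell. SOX4, an HMG-box factor, rose 2.64-fold from 83.3 to 219 CPM (adjusted p = 7.1e-13) and was 2.69-fold lower with RepSox added. NR2F1, a nuclear receptor, rose 1.95-fold and was 1.86-fold lower with RepSox added. The T-box gene TBX2 rose 4.62-fold at a low level (0.0942 to 0.447 CPM, adjusted p = 0.0166). RepSox in SW620 raised 7 of 12 tested genes of that list and lowered 2, against 10.2% and 9.24% of all genes, with TBX2 1.38-fold higher (25.1 to 34.6 CPM) and LEF1 1.71-fold lower. Among the ETS family without ETS1, 5 of 15 rose and 1 fell with DOX in DMSO, against 19.2% and 21.1% of all genes. ETV1, an activator of the PEA3 group, rose 5.22-fold from 7.12 to 37.0 CPM (adjusted p = 1.21e-12) and was 6.97-fold lower with RepSox added. In SW620, EHF, an epithelial ETS factor, rose 1.60-fold with RepSox (46.5 to 74.4 CPM, adjusted p = 2.01e-09), beside the rise of ETS1. Of 6 intermediate filament and plectin genes tested beside VIM, 4 rose and 2 fell with DOX in DMSO, against the same shares of all genes. NES, the nestin gene, rose 3.41-fold from 1.85 to 6.29 CPM (adjusted p = 1.43e-07). NES stood at 344 CPM in SW620 in DMSO and rose 1.33-fold there with RepSox.

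Likeness of pattern was measured as Pearson's r of log2 CPM over the 18 libraries, among 11937 genes with a mean of at least 5 CPM in some group. The libraries share their groups of treatment and line, and r is a description. The 3 genes most like ZEB1 were RILPL2 (r = 0.957), PDCD4 (0.952) and ATOH8 (0.936), and ATOH8, a basic helix-loop-helix factor, stood at 10.2 CPM with DOX in DMSO against 0.207 without DOX. SNAI1 was most like GTPBP3 (r = 0.995), GLA (0.992) and TMEM25 (0.990), which were high in SW620 and lowest with DOX in DMSO. ETS1 was most like BTG1 (r = 0.995), PCDHGC3 (0.994) and SLC39A10 (0.994), and VIM most like SLC43A3, RGL1 and CD99 (r = 0.996 each), which were high in SW620.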

How the data were processed

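RNA from 18 libraries was sequenced on a BGISEQ-500 after an RNeasy extraction and DNase treatment, per the labels' protocols. The deposited table holds whole-number counts per gene symbol, not normalised; the authors used GRCh38.p13 and featureCounts 2.0.0, per the submitters' processing notes, which also list HISAT2 2.2.0, DESeq2 1.34.0 and FastQC 0.11.9. No source used here gives the strand setting, annotation release or counting unit. The 10 genes and the gene lists were chosen with earlier results of these data known.

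Groups came from the labels. The 12 HT-29 iZEB1 libraries, the 6 SW620 libraries and all 18 were fitted with edgeR 4.0.16 (R 4.3.3): TMM scaling, filterByExpr with a minimum count of 10, and the quasi-likelihood test by group, with Benjamini-Hochberg adjustment over 16978, 17147 and 19107 genes and calls at an adjusted p below 0.05. The script was tested on simulated counts. CPM are counts per TMM effective library size, with mean ± SD over 3 libraries. Per-kilobase values use GENCODE 29 exon lengths. Beside the 10 genes, the text names up to 3 called genes of a list with the largest change in a comparison, the 3 genes most like 4 of the members, antisense genes and microRNA hosts. Alternatives were DESeq2 1.42.0, library totals alone, no filter, a replicate block, the groups of the contrast only, each library left out, and, chosen after the data were seen, halved counts.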

Additional observations from a re-analysis of the deposited data

Results flagged for a closer look

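The effect of DOX on ZEB1 differed between vehicle and RepSox: the interaction was -3.90 on the log2 scale (edgeR, adjusted p = 2.85e-12), with a DOX effect of 5.47 in DMSO and 1.57 in RepSox, and all 3 DOX libraries in RepSox below all 3 in DMSO. For ETS1 the interaction was -1.16 (adjusted p = 1.16e-05), with DOX effects of 1.36 and 0.20. The response to RepSox differed between the lines by 0.80 for ZEB1 (adjusted p = 0.000469), from -0.67 in HT-29 iZEB1 without DOX to 0.14 in SW620. For ETS1 it differed by 0.59 (adjusted p = 0.00123), from 0.09 to 0.69. Each of these 4 differences was tested directly as an interaction term.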

How the results depend on the processing

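Of 702 recomputed values of the 7 tested genes, 678 kept their direction and their side of the threshold, 11 changed sign, 1 lost its call and 12 gained one. These values do not cover ZEB2, TWIST1 and PRRX1, nor the RepSox response difference between the lines for SNAI2 and TWIST2. Of 29 called results 28 kept their call in every alternative. Halving the counts changed no direction and no call among the values of the tested genes it was run on. The cause of the other changes was not tested. DOX in RepSox called 81 genes, 293 with DESeq2, 584 with no filter, and 27 to 1670 with 1 library left out (1670 without the DOX RepSox replicate 1, and 27 without replicate 2). The other 121 of 129 recomputed counts of called genes stayed within 1.5 times. ETS1 with DOX and RepSox against untreated (0.29) was called with DESeq2 (0.29, adjusted p = 0.0436), with library totals alone (0.30, adjusted p = 0.0446), and without the no-DOX DMSO replicate 1 (range of all omissions 0.24 to 0.37). In SW620, library totals alone gave VIM a call (-0.14) and SNAI1 a change of sign (-0.030). Omitting single libraries moved log2 fold changes over these ranges where a call or sign changed. In the interaction, SNAI1 ran from 0.61 to 0.92. With DOX in DMSO, VIM ran from 1.12 to 1.75, and with DOX in RepSox, SNAI1 from -0.32 to 0.0024. In SW620 with RepSox the ranges were -0.058 to 0.071 for SNAI1, 0.42 to 0.72 for TWIST2 and 0.079 to 0.24 for ZEB1. For the response difference they were -0.87 to 0.032 for SNAI3 and -0.14 to 0.49 for VIM. With RepSox under DOX they were -0.57 to 0.091 for SNAI3 and -1.08 to -0.52 for VIM. RepSox without DOX gave -0.0033 to 0.17 for ETS1, -0.078 to 0.40 for SNAI3 and -0.60 to 0.032 for VIM. SW620 against HT-29 iZEB1 with DOX gave -1.38 to -0.55 for SNAI3. The fit on the groups of the contrast alone was by design not run for the interaction, for SW620 and for the response difference. Depth limits ZEB2, PRRX1 and VIM in HT-29 iZEB1, which hold few counts.

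Replicate numbers are shared between groups in the labels, but same-numbered libraries did not deviate together: 0 of 45 pairs had a correlation over 0.1 (-0.096 to 0.062). Each library was also set against the 3 libraries of each other group. It correlated best with its own number in 30 of these 90 library and group pairs. With the number as a replicate block, calls went from 6853 to 6955 for DOX in DMSO, from 81 to 109 for DOX in RepSox and from 3338 to 2848 for RepSox in SW620. The block changed 1 call among the tested genes of the 10, ETS1 with DOX and RepSox against untreated (0.30, adjusted p = 0.0246).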
